A study of Drosophila melanogaster with 12 samples.

Results

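The genes described are the aminoacyl-tRNA synthetase genes of *Drosophila melanogaster*. They were taken as every protein-coding gene whose symbol is 1 or 2 amino acid codes of 3 letters followed by RS, with -m added for the mitochondrial enzyme. The rule found 33 genes of the 13968 protein-coding genes on the 7 chromosome arms, 18 cytoplasmic and 15 mitochondrial, and it used symbols only, no measured value. Elongating Pol II, marked by phosphorylation of serine 2 (S2) in the repeats of its C-terminal domain, was mapped by ChIP-seq in Kc167 cells, a female cell line of embryonic hemocyte origin. The measure was S2 coverage, the percentage of bases between the start and the end of a gene that lay inside broad regions called by the authors with MACS2 in a single library. AGO2 KD cells were transfected with siRNA against AGO2, and LaminB KD cells with dsRNA against LaminB, a nuclear lamina protein. Mock cells were transfected with neither, so the reagent differed between the knockdowns. Each group had 2 S2 libraries, and the labels do not say whether replicates came from separate cultures. The question was whether AGO2 affects elongating Pol II, with LaminB KD to show how specific an effect of AGO2 KD is.

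An aminoacyl-tRNA synthetase attaches 1 amino acid to its matching tRNAs, the step that gives the genetic code its meaning, and a cell needs an enzyme for each amino acid to make protein. The cytoplasmic enzymes charge the tRNAs used by cytoplasmic ribosomes, and the mitochondrial enzymes are made from nuclear genes and imported to charge the tRNAs of mitochondrial ribosomes. The enzymes fall into classes I and II by the fold of their catalytic domain. These are housekeeping genes, active in essentially every growing cell.

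A few promoters are shown here because the results turn on their genes. TyrRS and GluRS-m lie head to tail on the minus strand of chromosome 3L, and the TyrRS gene carried S2 regions in every list while GluRS-m had none in any. ThrRS was among the genes with the largest differences between AGO2 KD and mock. AlaRS and TrpRS hold the DRE motif, letters TATCGATA, the binding site of the factor DREF. They kept over 50% coverage in each AGO2 KD library, as did AspRS and GlyRS, which have no DRE in their window. ArgRS and IleRS, which also hold the DRE, did not. The sequences are from the RefSeq copy of the Release 6 genome (dm6), run 5′ to 3′ on the strand of the gene to 30 bases past the annotated start, and begin 150 bases before it, or nearer to it where an exon of a neighbouring gene lies in that stretch. Capitals mark a motif.
TyrRS, chr3L:16419273-16419452, minus strand: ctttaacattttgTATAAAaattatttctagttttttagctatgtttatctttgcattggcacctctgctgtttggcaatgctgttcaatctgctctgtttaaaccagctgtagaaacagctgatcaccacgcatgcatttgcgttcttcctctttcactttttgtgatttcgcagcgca
GluRS-m, chr3L:16417148-16417327, minus strand: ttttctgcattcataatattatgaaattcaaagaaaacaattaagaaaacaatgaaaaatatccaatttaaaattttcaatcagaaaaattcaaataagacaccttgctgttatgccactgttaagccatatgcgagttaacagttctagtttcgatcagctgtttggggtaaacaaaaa
ThrRS, chr2L:12103601-12103780, plus strand: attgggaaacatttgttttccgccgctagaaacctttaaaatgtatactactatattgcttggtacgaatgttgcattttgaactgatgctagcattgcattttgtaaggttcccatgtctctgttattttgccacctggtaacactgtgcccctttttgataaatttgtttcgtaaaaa
AlaRS, chr2L:8381735-8381820, minus strand: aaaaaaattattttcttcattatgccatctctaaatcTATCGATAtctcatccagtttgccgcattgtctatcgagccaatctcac
TrpRS, chr3R:9266875-9267018, minus strand: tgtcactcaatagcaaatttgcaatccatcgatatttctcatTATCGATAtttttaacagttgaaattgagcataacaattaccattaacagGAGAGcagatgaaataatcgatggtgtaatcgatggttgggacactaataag

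Motifs were counted in windows of 300 bases, from 250 before to 50 after each start, on both strands. The DRE was present in 5 of 33 synthetase promoters (15.2%), those of AlaRS, ArgRS, IleRS, TrpRS and PheRS-m, and in 9.36% of all 13968 promoters. In AlaRS it began 19 bases and in TrpRS 72 bases before the start. The TATA box letters TATAAA were in 18 synthetase promoters (54.5%) and in 45.8% of all promoters. The letters GAGAG of the GAGA motif were in 6 (18.2%) against 29.7% of all, and the E-box CACGTG in 2 (6.06%), GlnRS and LeuRS-m, against 4.20% of all. None of these motifs overlaps another by its letters within the windows shown. These counts describe letters in a window and were not tested.

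The libraries were not equal. AGO2 KD libraries had 4122 and 6534 regions covering 3.07 and 7.20 Mb, LaminB KD libraries had 7309 and 7122 regions covering 10.5 and 10.3 Mb, and mock libraries had 7795 and 7957 regions covering 13.0 and 12.7 Mb. Read counts are not part of the lists, so the depth is unknown and values have no counting interval. At a fold enrichment of 3 to 3.5 the median −log10 p of a region was 4.11 and 6.49 in AGO2 KD, compared with 9.87 and 11.6 in LaminB KD and 14.7 and 14.5 in mock. At like fold the AGO2 KD regions thus had the smallest −log10 p, and the part of this in the lower AGO2 KD coverage was not tested. AGO2 KD 1 stood apart. It lay below AGO2 KD 2 at 24 of 33 synthetase genes, and 11 genes differed by over 25 percentage points between these replicates, compared with 2 genes in LaminB KD and 4 in mock. Results on AGO2 KD are therefore also given without it. S2 regions do not measure the depletion itself, so the knockdown of AGO2 or LaminB cannot be checked from these lists. Of the hemocyte markers checked against the label, 7 of 8 had a region in mock, with a median coverage over the 8 of 6.93% and 6.91% and the highest at Hml, 73.7% and 75.3%, and NimC1 had none in any list. The germline marker vas, at 24.0% and 23.2%, the neuron marker elav, at 7.20% and 8.67%, and the muscle marker Mlc2, at 5.07% and 5.52%, also had regions in mock. The other markers of these tissues that matched a gene, nSyb, Syt1, Mhc and bam, had none. Of all protein-coding genes, 52.9% and 52.4% had a region in mock.

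Most cytoplasmic synthetase genes were covered almost end to end in mock, 12 of 18 at 90% or more in each mock library. The mitochondrial genes mostly had a small part of their length inside regions, or none. The median cytoplasmic gene had 16.7% and 64.9% of its length in S2 regions in AGO2 KD, compared with 95.1% and 84.7% in LaminB KD and 99.7% and 96.6% in mock. The median mitochondrial gene had 0% and 0% in AGO2 KD, compared with 16.0% and 22.7% in LaminB KD and 22.9% and 26.4% in mock. The cytoplasmic minus mitochondrial difference averaged 40.8 ± 34.1 points over AGO2 KD libraries, 70.6 ± 12.1 points over LaminB KD libraries and 73.5 ± 4.71 points over mock libraries (SD, n = 2 each). It was positive in all 6 libraries. The difference was smallest in AGO2 KD 1, at 16.7 points, against 64.9 points in AGO2 KD 2.

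The gap was also seen in the presence of any region. A region touched 17 and 18 of 18 cytoplasmic genes in AGO2 KD, and all 18 in each LaminB KD and mock library. Of the 15 mitochondrial genes, 3 and 7 had a region in AGO2 KD, compared with 9 and 10 in LaminB KD and 10 and 11 in mock. Over all protein-coding genes, a region touched 31.6% and 45.2% in AGO2 KD, compared with 50.0% and 50.1% in LaminB KD and 52.9% and 52.4% in mock. In all, 20 synthetase genes had a region in all 6 lists and 4 had one in none. The median gene length was 3090 bp for cytoplasmic and 2727 bp for mitochondrial genes.

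**Figure D1:**
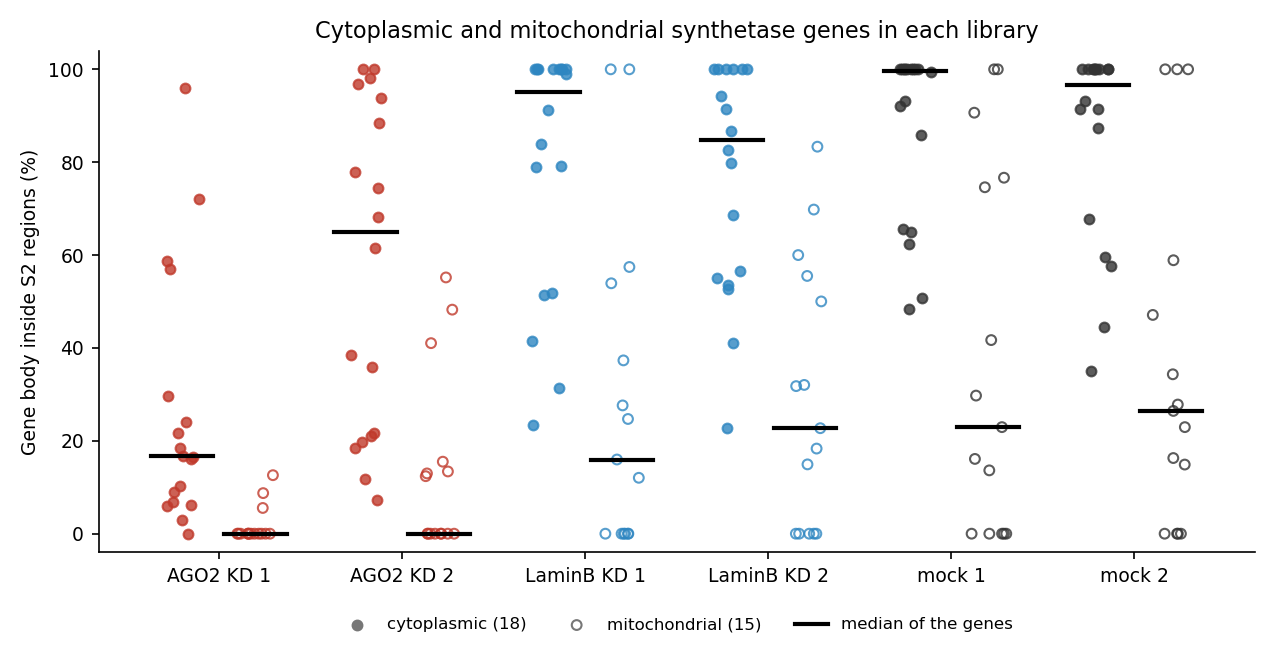
S2 coverage (percent of the gene body inside called regions, y axis) of each synthetase gene in each of the 6 libraries (x axis). Filled points are the 18 cytoplasmic genes, open points the 15 mitochondrial genes, and bars their medians. The cytoplasmic median lies above the mitochondrial median in every library, and the AGO2 KD 1 points sit lowest, with a cytoplasmic median of 16.7%.

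Several cytoplasmic genes lay wholly inside S2 regions in both mock libraries. ThrRS (threonine, 2L:12103751-12107170), LysRS (lysine), GlyRS (glycine) and ValRS (valine) were at 100% in mock 1 and mock 2, as were AlaRS, AsnRS, AspRS and GlnRS. The lowest cytoplasmic gene in mock was LeuRS (leucine, 2L:3510328-3514656), with 21.7% and 7.23% in AGO2 KD, compared with 23.5% and 22.8% in LaminB KD and 48.4% and 35.0% in mock. CysRS (cysteine, 2R:16143147-16145906) had 5.91% and 21.6% in AGO2 KD, compared with 51.9% and 52.8% in LaminB KD and 50.7% and 57.6% in mock. HisRS (histidine) had 16.1% and 21.0% in AGO2 KD, compared with 41.4% and 56.5% in LaminB KD and 65.0% and 67.8% in mock. In all 3 genes the AGO2 KD and mock values did not overlap, as was the case, with AGO2 KD below, at 80.9% of all genes with a region in both mock lists. The whole HisRS gene lies within the bounds of Bx, so its regions cannot be told apart from those of Bx.

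GluProRS, a single protein that charges both glutamate and proline tRNAs, is the longest cytoplasmic gene at 6256 bp (3R:23952136-23958391). Its coverage was 2.97% and 18.5% in AGO2 KD, compared with 31.4% and 41.1% in LaminB KD and 65.6% and 44.4% in mock. The groups did not overlap, and mock 1 stood well above mock 2. An antisense RNA gene overlaps 17.3% of its length, and the lists carry no strand.

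**Figure D2:**
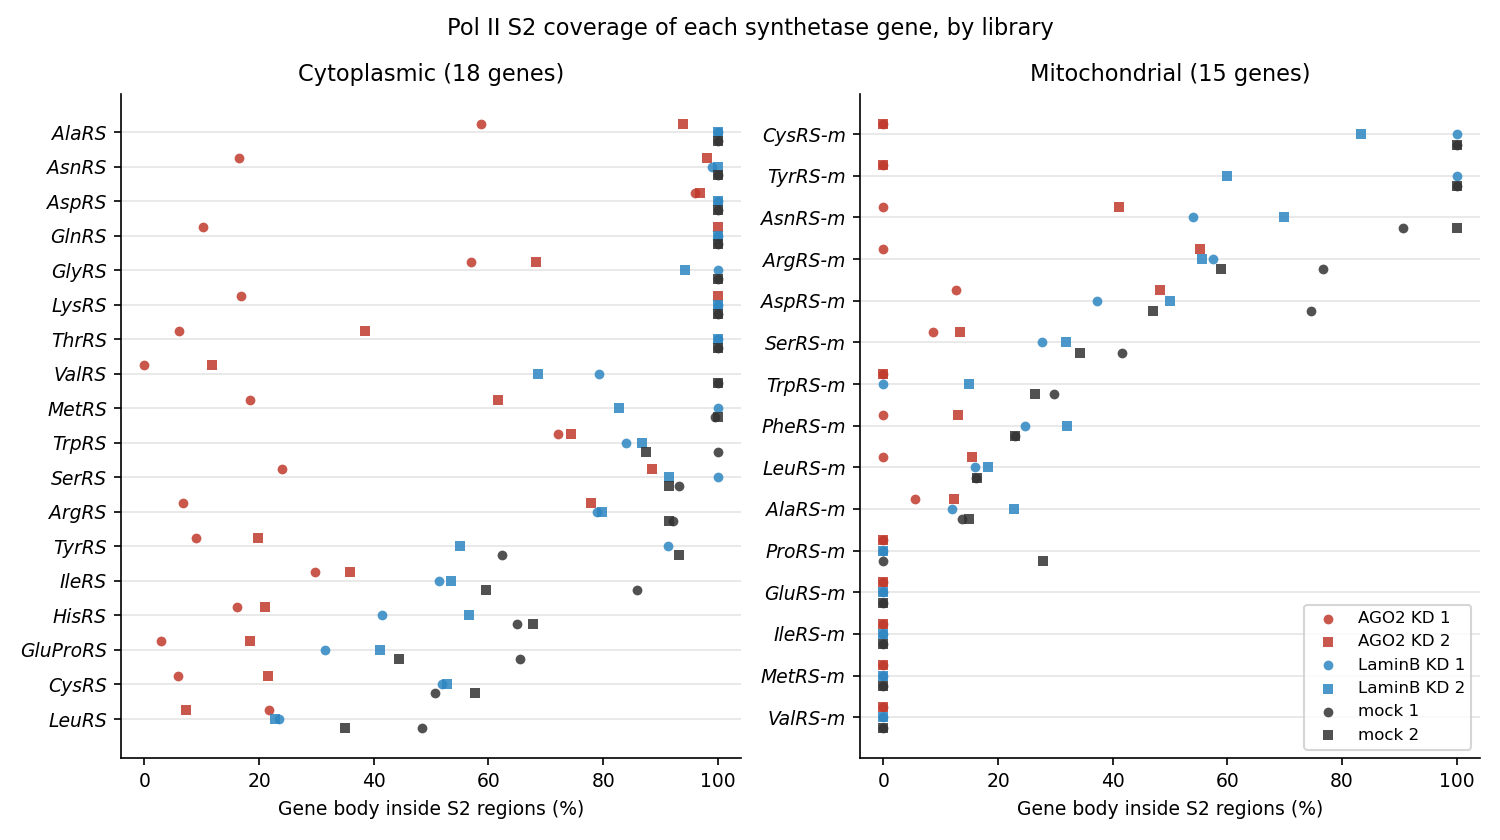
S2 coverage (percent of the gene body inside called regions, x axis) of each of the 33 synthetase genes, cytoplasmic on the left and mitochondrial on the right, ordered by mean mock coverage. Circles are replicate 1 and squares replicate 2 of AGO2 KD, LaminB KD and mock. Points of 8 cytoplasmic genes sit at 100% in both mock libraries, and 4 mitochondrial genes sit at 0% in all 6 libraries.

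Among the mitochondrial genes, CysRS-m and TyrRS-m differed from the rest in being fully covered in mock. CysRS-m (2R:14159096-14161262) had 0% and 0% in AGO2 KD, compared with 100% and 83.3% in LaminB KD and 100% and 100% in mock. TyrRS-m (2R:24781726-24783500) had 0% and 0% in AGO2 KD, compared with 100% and 60.0% in LaminB KD and 100% and 100% in mock. Both genes were bare in AGO2 KD and covered in the other groups. Their regions lay over other genes as well. The mock regions on CysRS-m were 9305 and 9353 bp wide and took in 6 other protein-coding genes, while that on TyrRS-m also touched CG3594 and CG3589.

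AsnRS-m had 0% and 41.0% in AGO2 KD, compared with 53.9% and 69.8% in LaminB KD and 90.7% and 100% in mock, with no overlap between groups. ArgRS-m had 0% and 55.2% in AGO2 KD, compared with 57.4% and 55.5% in LaminB KD and 76.7% and 58.9% in mock, and 28.1% of its length overlaps mRpS9. The 2 AGO2 KD libraries thus disagreed at both genes, which had no region in AGO2 KD 1. PheRS-m, the mitochondrial phenylalanine enzyme, had 0% and 13.0% in AGO2 KD, compared with 24.7% and 32.0% in LaminB KD and 22.9% and 22.9% in mock. LeuRS-m had 0% and 15.5% in AGO2 KD, compared with 16.0% and 18.3% in LaminB KD and 16.1% and 16.3% in mock. AlaRS-m had 5.54% and 12.4% in AGO2 KD, compared with 12.0% and 22.7% in LaminB KD and 13.6% and 14.9% in mock. In these 3 genes only a short stretch was covered in any library, and LaminB KD and mock stood within 10 points of each other.

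TrpRS-m had 0% and 0% in AGO2 KD, compared with 0% and 14.9% in LaminB KD and 29.7% and 26.4% in mock. ProRS-m had a region in mock 2 alone, at 27.8%. GluRS-m, IleRS-m, MetRS-m and ValRS-m, for glutamate, isoleucine, methionine and valine, had no region in any of the 6 lists. A gene at 0% had no region past the threshold of the authors, which does not show that Pol II was absent. The remaining members, SerRS-m and AspRS-m, ranged from 8.74% to 41.7% and from 12.6% to 74.6%, and SerRS-m lies wholly within Nagk.

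The same amino acid has both a cytoplasmic and a mitochondrial gene in 12 cases. The cytoplasmic gene was the more covered in 11 and 11 of 12 pairs in AGO2 KD, compared with 10 and 10 in LaminB KD and 10 and 9 in mock. The widest gaps in mock were those of valine, at 100 points, methionine, at 99.7 points, and alanine, at 85.7 points (means of 2 libraries). For alanine the gap was 53.2 and 81.5 points upon AGO2 KD, compared with 88.0 and 77.3 in LaminB KD and 86.4 and 85.1 in mock. AlaRS was thus above AlaRS-m in all 6 libraries by more than any replicate gap of either gene. For valine the gap was 0 and 11.8 points upon AGO2 KD, compared with 79.2 and 68.6 in LaminB KD and 100 and 100 in mock.

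Cysteine and tyrosine ran the other way. CysRS minus CysRS-m was 5.91 and 21.6 points upon AGO2 KD, compared with −48.1 and −30.6 in LaminB KD and −49.3 and −42.4 in mock. TyrRS minus TyrRS-m was 9.01 and 19.8 points upon AGO2 KD, compared with −8.75 and −5.04 in LaminB KD and −37.7 and −6.86 in mock. In both pairs the mitochondrial gene was the more covered in LaminB KD and mock, and the cytoplasmic gene in AGO2 KD, where the mitochondrial gene had no region. Asparagine, the next pair, had a mean gap of 4.67 points in mock, less than the 9.34 points by which its mock libraries differed.

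TyrRS and GluRS-m lie next to each other on the minus strand, TyrRS at 3L:16417349-16419302 and GluRS-m at 3L:16415292-16417177 just beyond its 3′ end. TyrRS had 9.01% and 19.8% coverage in AGO2 KD, compared with 91.2% and 55.0% in LaminB KD and 62.3% and 93.1% in mock. GluRS-m had 0% in all 6 lists. The S2 regions on TyrRS extended instead over the neighbour at its 5′ side, CG33158, in all lists but AGO2 KD 1.

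Along the gene, S2 regions touched the first 500 bp of nearly all cytoplasmic genes and, in mock, the last 500 bp of most. At least 1 bp of the first 500 bp was covered in 17 and 18 of 18 cytoplasmic genes in AGO2 KD, and in all 18 in each LaminB KD and mock library. The last 500 bp was covered in 3 and 11 genes in AGO2 KD, compared with 13 and 14 in LaminB KD and 15 and 15 in mock. The first 500 bp was covered in full in 7 and 14 genes in AGO2 KD, compared with 18 and 17 in LaminB KD and 16 and 18 in mock. A region still touched the start of nearly all cytoplasmic genes in AGO2 KD, over less of the first 500 bp in AGO2 KD 1, and the end was reached at fewer of them, in AGO2 KD 1 above all. Regions were narrower over the whole AGO2 KD lists, with a median width of 438.5 and 667 bp, compared with 800 and 820 bp in LaminB KD and 906 and 862 bp in mock. Starts and ends were not counted over all genes, so this is not shown to be particular to synthetase genes. Without AGO2 KD 1, the count of covered ends was 11 in AGO2 KD against 15 and 15 in mock. Of the 15 mitochondrial genes, the first 500 bp was covered in 2 and 5 in AGO2 KD, compared with 8 and 10 in LaminB KD and 10 and 11 in mock, and the last 500 bp in 1 and 2 in AGO2 KD, compared with 4 and 4 in LaminB KD and 5 and 4 in mock.

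In 20 bins from start to end, the mean share of the first bin inside regions was 80.8% and 98.7% in AGO2 KD, compared with 100% and 99.3% in LaminB KD and 99.4% and 100% in mock for cytoplasmic genes. At the tenth bin it was 16.7% and 48.9% in AGO2 KD, compared with 78.7% and 71.8% in LaminB KD and 92.2% and 91.2% in mock. The last bin had 6.66% and 27.7% in AGO2 KD, compared with 55.7% and 46.8% in LaminB KD and 61.2% and 55.6% in mock. The AGO2 KD lines were below those of both other groups in these bins, and the distance was least at the start. The bins were not computed over all genes. In mitochondrial genes the first bin had 11.2% and 32.4% in AGO2 KD, compared with 46.8% and 41.6% in LaminB KD and 61.5% and 61.5% in mock.

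**Figure D3:**
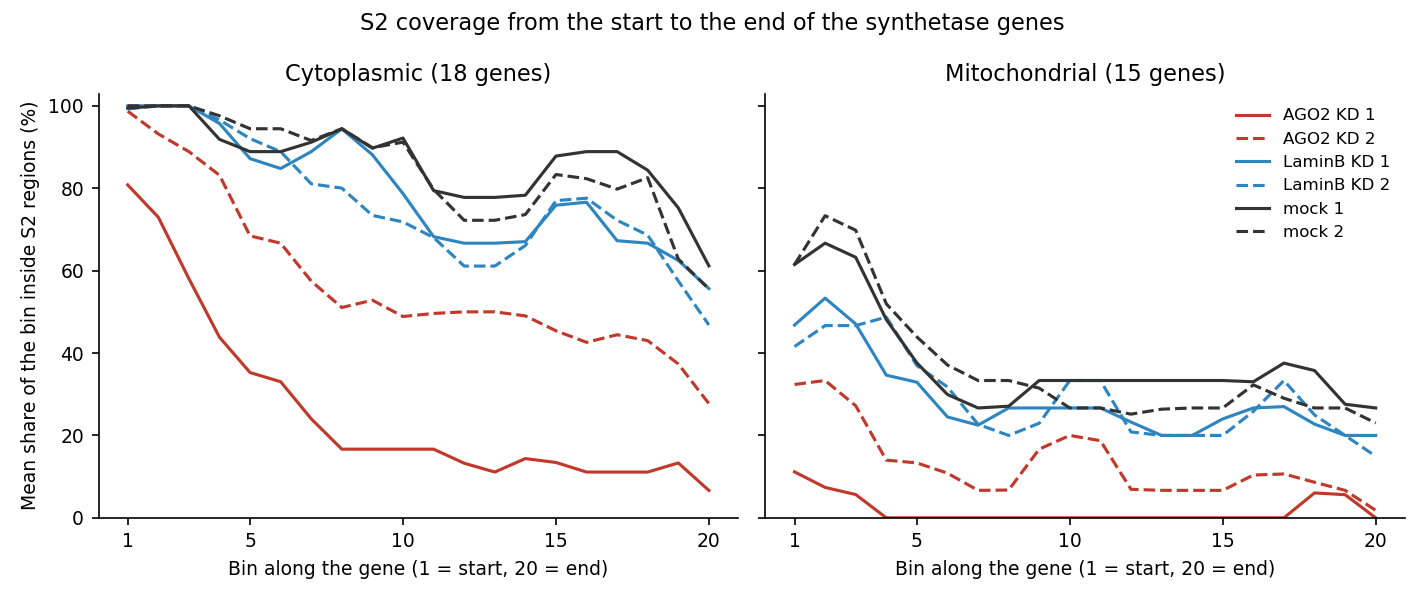
Mean share of each of 20 equal bins of the gene that lies inside S2 regions (percent, y axis) from the start (bin 1) to the end (bin 20), for 18 cytoplasmic genes on the left and 15 mitochondrial genes on the right. Lines are libraries, solid for replicate 1 and dashed for replicate 2. In cytoplasmic genes the first bin is at 80.8% or more in every library, and the AGO2 KD lines then drop below the others.

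Single genes show the shape of this. The leading region on ThrRS was 209 and 1082 bp wide in AGO2 KD, compared with 5498 and 5464 bp in LaminB KD and 5954 and 5974 bp in mock. Its fold enrichment, averaged over the region by MACS2, was 2.94 and 2.89 in AGO2 KD, compared with 2.79 and 2.71 in LaminB KD and 2.54 and 2.70 in mock. The region was narrow in AGO2 KD and long in the other groups, at a like fold. In AGO2 KD it ended within ThrRS, and in the other groups it ran on into Rab6. AGO2 KD 2 held 2 regions on ThrRS, and 15% of the last 500 bp of the gene was covered in that library. On HisRS the leading region was 838 and 925 bp wide in AGO2 KD, compared with 974 and 985 bp in LaminB KD and 1010 and 1003 bp in mock, at a fold of 4.50 and 3.94 in AGO2 KD, compared with 4.14 and 4.01 in LaminB KD and 3.86 and 3.84 in mock. This region at the HisRS start was thus of like width in all groups, and the number of regions on HisRS was 1 and 2 in AGO2 KD against 3 in each LaminB KD and mock library. A fold is the value of 1 region and is set side by side here without a test.

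Regions were shared with neighbours more often than not. Of the members with a region, it also touched another protein-coding gene in 12 of 20 and 19 of 25 in AGO2 KD, compared with 24 of 27 and 24 of 28 in LaminB KD and 27 of 28 and 27 of 29 in mock. The median width of the leading region was 618.5 and 1878 bp in AGO2 KD, compared with 2996 and 2152.5 bp in LaminB KD and 3634 and 3017 bp in mock. A region on a synthetase gene thus often lay over a neighbour as well, most often in mock.

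To ask whether AGO2 depletion changed S2 coverage of these genes, a gene was called lower when both knockdown libraries lay at least 25 percentage points below both mock libraries. In AGO2 KD 12 of 33 synthetase genes were lower, and 14.4% of all 13968 protein-coding genes passed the same call. Only genes of at least 25% in both mock libraries could pass, and of these 12 of 25 synthetase genes (48%) were lower against 44% of such genes among all genes. The share among synthetase genes was thus near the background. None was higher, as was the case over all genes (0%). With 2 libraries against 2, the smallest two-sided p of an exact permutation test is 0.333, so no single gene can pass a threshold of 0.05.

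The 12 genes were CysRS, GluProRS, GlyRS, HisRS, MetRS, ThrRS, TyrRS and ValRS among the cytoplasmic and AsnRS-m, CysRS-m, TrpRS-m and TyrRS-m among the mitochondrial. ValRS (2R:13198850-13202709) had 0% and 11.8% in AGO2 KD against 100% and 100% in mock, a difference of −94.1 points with a pooled SD of 5.88. ThrRS had 6.11% and 38.4% in AGO2 KD against 100% and 100% in mock, a difference of −77.7 points with a pooled SD of 16.1. GlyRS (3L:15095142-15097686) had 56.9% and 68.2% in AGO2 KD against 100% and 100% in mock, a difference of −37.4 points with a pooled SD of 5.64. In each of these genes the fall was larger than the spread between replicates. MetRS had 18.4% and 61.6% in AGO2 KD against 99.5% and 100% in mock, a difference of −59.7 points with a pooled SD of 21.6. TyrRS differed by −63.3 points with a pooled SD of 16.3, and CysRS by −40.4 points with a pooled SD of 8.57.

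The call depended on how many regions each list held. With the same number of top-scoring regions, 4122, taken from every list, 4 of the 12 were still lower, namely CysRS, CysRS-m, GlyRS and ThrRS, and no other member was. TyrRS then had 9.01% and 19.8% in AGO2 KD against 0% and 0% in mock, MetRS 18.4% and 0% in AGO2 KD against 0% and 0% in mock, and HisRS 16.1% and 21.0% in AGO2 KD against 17.4% and 17.8% in mock. The direction at TyrRS and MetRS was thus turned, at MetRS by AGO2 KD 1 alone, whose list of 4122 regions was kept whole. The mock regions on both genes ranked too low in their lists to be kept. At this setting 4 of 15 synthetase genes that could pass (26.7%) were lower, against 42.9% of such genes in the whole annotation.

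The call asks every knockdown library to lie below every mock library, so leaving a library out can only keep or add genes. Without AGO2 KD 1, the 12 genes thus had to stay. LeuRS was added, for 13 of the 25 synthetase genes that could pass (52%), against 44.1% of all such genes. Without AGO2 KD 2, 22 of 25 (88%) were lower, against 80.1% of all such genes. Leaving out AGO2 KD 2 added 10 genes, among them GlnRS, with 10.3% and 100% in AGO2 KD against 100% and 100% in mock, LysRS, with 16.8% and 100% in AGO2 KD against 100% and 100% in mock, and AsnRS, with 16.6% and 98.0% in AGO2 KD against 100% and 100% in mock. These 3 genes were covered in AGO2 KD 2 nearly as in mock.

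The smallest differences among covered genes were at AspRS (aspartate, 2R:12877004-12883168) and AlaRS-m. AspRS had 96.0% and 96.9% in AGO2 KD, compared with 100% and 100% in LaminB KD and 100% and 100% in mock, and 80.3% of its length overlaps other genes, Nmda1 among them. AlaRS-m differed by −5.30 points between AGO2 KD and mock, with a pooled SD of 3.48. AlaRS (alanine, 2L:8378262-8381764) had 58.7% and 93.9% in AGO2 KD against 100% and 100% in mock. TrpRS (tryptophan, 3R:9265027-9266904) had 72.1% and 74.4% in AGO2 KD, compared with 83.9% and 86.7% in LaminB KD and 100% and 87.4% in mock. AlaRS and TrpRS hold the DRE, as do 2 other cytoplasmic genes, ArgRS and IleRS. None of these passed the call, which 44% of all genes that could pass did. ArgRS had 6.82% and 77.9% in AGO2 KD against 92.1% and 91.5% in mock. IleRS had 29.7% and 35.9% in AGO2 KD against 85.9% and 59.6% in mock, a smallest gap of 23.7 points. Their mean differences, −49.4 points at ArgRS and −39.9 points at IleRS, exceeded the −37.4 points of GlyRS, which passed. At AlaRS and TrpRS the mean differences were −23.7 and −20.4 points, and at PheRS-m, the mitochondrial gene with the DRE, −16.5 points. The DRE genes thus differed among themselves, and the motif was not tested.

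The median difference over the 33 genes, AGO2 KD minus mock, was −37.4 points. It was −42.2 points over cytoplasmic and −16.5 points over mitochondrial genes, beside −22.3 points over the 7611 protein-coding genes with a region in any list. A fall cannot exceed the mock coverage, so these values are not on a like scale. The mock median averaged 98.2% over cytoplasmic and 24.7% over mitochondrial genes, and was 46.1% and 48.1% over the 7611 genes. Without AGO2 KD 1 the median difference was −13.9 points over synthetase genes and −11.6 points over those 7611 genes. The mean was lower in AGO2 KD at 29 of 33 genes and equal at the 4 with no region. With no margin, the higher AGO2 KD library was still below the lower mock library at 25 of the 28 synthetase genes with a region in both mock lists (89.3%), against 80.9% of all such genes. A region was lost, present in both mock and in neither AGO2 KD list, at 3 of 28 (10.7%), CysRS-m, TrpRS-m and TyrRS-m, against 12.4% of all such genes. No synthetase gene gained a region, and neither did any other gene (0%).

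**Figure D4:**
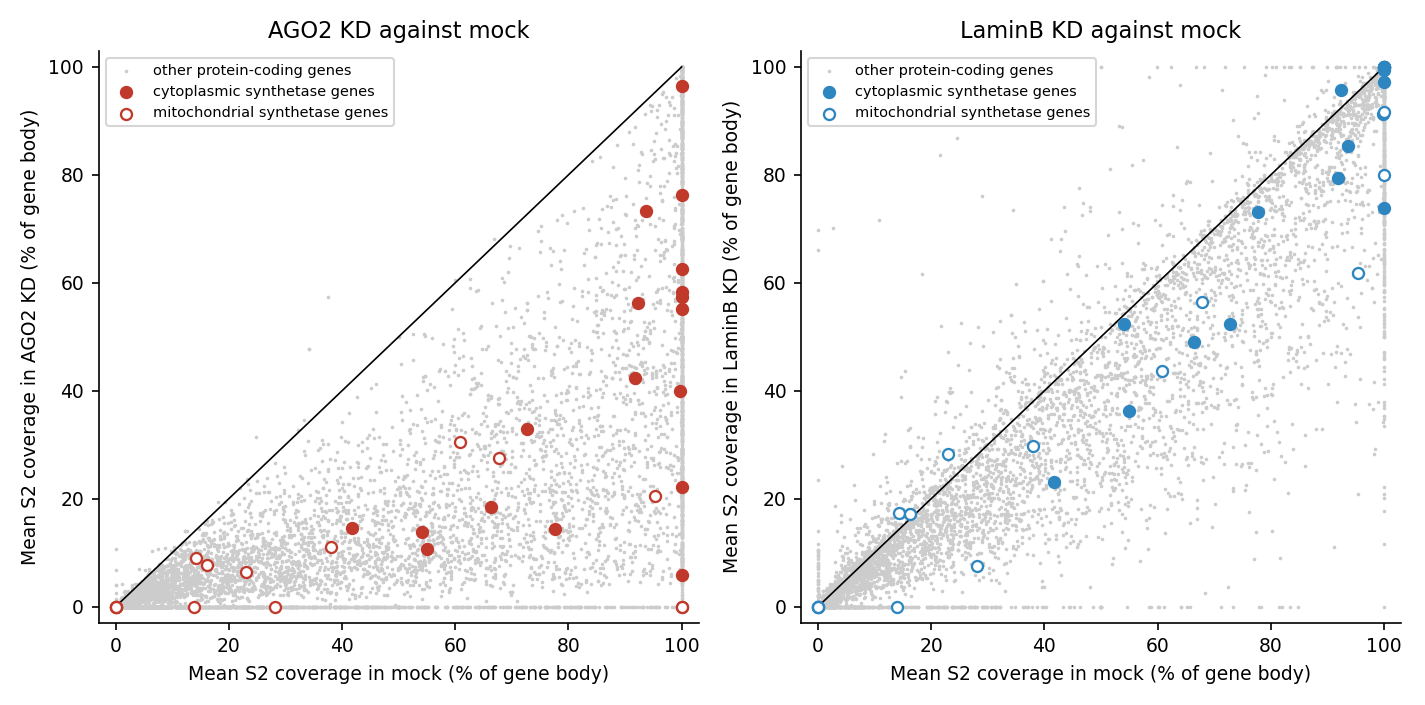
Mean S2 coverage (percent of the gene body) in AGO2 KD (left, y axis) and LaminB KD (right, y axis) against mock (x axis), for synthetase genes (large points, filled for cytoplasmic and open for mitochondrial) over all other protein-coding genes (grey). The line marks equal coverage. In AGO2 KD the synthetase genes with a region lie below the line, as do most other genes, and in LaminB KD they lie between −33.5 and 5.42 points from it.

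In LaminB KD no synthetase gene was lower or higher than mock by 25 points, against 1.70% of all genes lower, 5.19% of those that could pass, and 0.1% of all genes higher. With no margin, the higher LaminB KD library was below the lower mock library at 11 of 28 synthetase genes (39.3%), against 40.5% of all such genes. The most negative differences, LaminB KD minus mock, were −33.5 points at AsnRS-m, with a pooled SD of 9.21, −26.1 points at ValRS, with a pooled SD of 5.32, and −20.6 points at TrpRS-m, with a pooled SD of 7.64. ValRS had 79.2% and 68.6% in LaminB KD against 100% and 100% in mock. LaminB KD 1 lay less than 25 points below mock there, so ValRS did not pass.

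The most positive differences were 5.42 points at PheRS-m, with a pooled SD of 3.67, 3.40 points at SerRS, with a pooled SD of 4.34, and 3.12 points at AlaRS-m, with a pooled SD of 5.38. SerRS, the serine enzyme, had 100% and 91.5% in LaminB KD against 93.1% and 91.5% in mock, and so overlapped mock. The difference at PheRS-m exceeded the pooled SD, and those at SerRS and AlaRS-m did not. The median difference, LaminB KD minus mock, was −4.61 points over the 33 genes and −1.89 points over the 7611 genes with a region. No synthetase gene lost a region, against 2.44% of all genes with a region in both mock lists, and none gained one, against 0.0859% of all 13968 genes.

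Set against LaminB KD directly, 7 of 33 synthetase genes were lower in AGO2 KD, against 8.60% of all genes. Of those that could pass, 7 of 23 (30.4%) were lower against 30.2% of all such genes. They were CysRS, CysRS-m, GlyRS, ThrRS, TyrRS, TyrRS-m and ValRS, all of them also lower than mock. Without AGO2 KD 1 the count, which could not fall, was 7 of 23, against 30.4% of all genes that could pass. Without AGO2 KD 2 it was 18 of 23 (78.3%), against 74.4% of all such genes. With 4122 regions from every list it was 2 of 14 (14.3%), against 31.1% of all such genes. None was higher, nor was any other gene (0%). With no margin, the higher AGO2 KD library was below the lower LaminB KD library at 23 of 27 (85.2%), against 70.9% of all such genes. CysRS-m and TyrRS-m, 2 of 27 (7.41%), had a region in both LaminB KD and in neither AGO2 KD list, against 8.44% of all such genes, and none was gained, against 0.00716% of all 13968 genes. The median difference was −25.5 points over the 33 genes and −14.1 points over the 7611 genes, and −7.46 and −4.91 points without AGO2 KD 1. The room to fall differed here too, with LaminB KD medians of 53.9% and 55.5% over the 33 genes and 33.6% and 34.2% over the 7611. The comparisons with mock and with LaminB KD use the same AGO2 KD libraries.

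By class of enzyme, the 9 cytoplasmic class I genes had medians of 10.3% and 35.9% in AGO2 KD, compared with 79.2% and 68.6% in LaminB KD and 92.1% and 91.5% in mock. The 8 cytoplasmic class II genes had medians of 20.4% and 91.2% in AGO2 KD, compared with 100% and 100% in LaminB KD and 100% and 100% in mock. The class II median was the higher in every library. GluProRS holds an enzyme of each class and was left out of both. The difference between the classes was not tested.

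Genes that work with these enzymes were described from a list of 11, of which 10 matched a gene. AIMP1 and AIMP2, scaffold proteins of the complex that holds several cytoplasmic synthetases, were among the 3 of 10 that were lower in AGO2 KD than in mock by the margin, beside 14.4% of all genes. Of the 10, 7 could pass the call, and 44% of all genes that could pass did so. AIMP1 had 12.1% and 16.9% in AGO2 KD, compared with 100% and 100% in LaminB KD and 100% and 100% in mock. AIMP2 had 13.7% and 22.4% in AGO2 KD, compared with 58.7% and 94.1% in LaminB KD and 94.0% and 91.3% in mock. The other scaffold gene, AIMP3, had 89.0% and 100% in AGO2 KD against 100% and 100% in mock. The AIMP genes thus differed among themselves in AGO2 KD and were alike in mock.

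The cytoplasmic phenylalanine enzyme has separate subunits that the symbol rule leaves out. alpha-PheRS had 0% and 90.5% in AGO2 KD, compared with 100% and 100% in LaminB KD and 100% and 100% in mock. beta-PheRS had 35.4% and 82.7% in AGO2 KD, compared with 97.6% and 96.3% in LaminB KD and 96.7% and 96.3% in mock. Both were far lower in AGO2 KD 1 than in AGO2 KD 2. GatA, GatB and GatC encode the amidotransferase that makes glutaminyl-tRNA in mitochondria. GatC had 21.5% and 21.4% in AGO2 KD, compared with 65.0% and 67.1% in LaminB KD and 100% and 100% in mock, and was the 1 gene of the 7 that could pass to be lower than mock in LaminB KD, beside 5.19% of all such genes. GatA had 30.3% and 50.9% in AGO2 KD, compared with 55.5% and 58.7% in LaminB KD and 60.0% and 67.0% in mock, while GatB stayed at or under 4.21% in every library. Slimp, a relative of the mitochondrial seryl-tRNA synthetase, had a region in LaminB KD 2 and mock 1 only. AIMP1, AIMP2 and GatC were also the 3 of 7 able to pass that were lower in AGO2 KD than in LaminB KD, beside 30.2% of all such genes.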

How the data were processed

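Processed region lists of 6 Pol II S2 ChIP-seq libraries were analysed, 2 each of AGO2 KD, LaminB KD and mock. The 6 input samples have no region list of their own and served the authors as background for peak calling. According to the study's methods, the authors trimmed reads with cutadapt, aligned them to dm6 with Bowtie2, removed multimapping reads and PCR duplicates (Picard) and called broad regions with MACS2 2.1.1.20160309, separately for each replicate. Which input entered each call is not given in the sources used here. The score deposited by the authors was used only to rank regions within a list. The fold (ratio of IP to the background expected from input) and the −log10 p and −log10 q deposited by the authors are averages over a region. Depth cannot be had from these columns.

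Gene models were from Ensembl release 115 (BDGP 6.54, dm6). Coverage was computed with Python 3.11.15, numpy 2.4.6 and pandas 2.3.3, and the coverage and call steps were tested on simulated regions. Groups followed the labels. A gene differed when both libraries of a group lay at least 25 points from both of the other, and single genes had an exact two-sided permutation test. Members and lists were chosen with earlier results of these data known. Genes were named by a rule: the 4 highest and 4 lowest of each kind in mock, the 6 largest falls and 6 smallest changes in AGO2 KD, the 3 largest changes each way in LaminB KD, genes without a region in some list, the 3 widest pairs each way, and GluProRS. Other genes named were chosen after their values were seen. Alternatives were other region cutoffs, exons in place of gene spans, bases outside other genes, other margins, a replicate block and each library left out.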

Additional observations from a re-analysis of the deposited data

Results flagged for a closer look

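PheRS-m, the mitochondrial phenylalanyl-tRNA synthetase gene, went below mock in AGO2 KD and above mock in LaminB KD. Its S2 coverage was 0% and 13.0% in AGO2 KD, compared with 24.7% and 32.0% in LaminB KD and 22.9% and 22.9% in mock. The mean difference from mock was −16.5 points for AGO2 KD and 5.42 points for LaminB KD. All 4 knockdown libraries show the direction of their group. In every list with a region on PheRS-m, that region also touched the neighbour CtsL1. The mock regions were 5042 and 5053 bp wide and only their end lay in PheRS-m, which starts at 2R:13968308. They ended at 13968673 in both mock libraries, against 13968701 in LaminB KD 1 and 13968818 in LaminB KD 2. The values thus describe where a region shared with a neighbour ended. Whether the effects differ was not tested, and both rest on the same mock libraries.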

How the results depend on the processing

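Alternative settings kept an equal number of top-scoring regions (4122) from every library, or the top-scoring 50% of each list. The count of synthetase genes lower in AGO2 KD than in mock was then 4 and 7, in place of 12. Of the 15 that could pass in each setting these were 26.7% and 46.7%, against 42.9% and 50.4% of all such genes. Of the 7, 4 were among the 12, and AsnRS, AspRS-m and GlnRS were added. The median difference of AGO2 KD from mock was −11.5 and −14.3 points, in place of −37.4. The median difference of AGO2 KD from LaminB KD was −12.1 and −7.39 points, in place of −25.5, and that of LaminB KD from mock was 0 in both, in place of −4.61. With an equal number of regions, 2 genes were lower in AGO2 KD than in LaminB KD, in place of 7. The cytoplasmic minus mitochondrial difference was 24.9 and 10.6 points in AGO2 KD in these settings, in place of 40.8, and 83.8 and 80.3 points in mock, in place of 73.5. AGO2 KD minus mock turned positive at HisRS, to 0.927 points in both settings, and with an equal number at MetRS, to 9.19 points, and at TyrRS, to 14.4 points. These settings keep fewer regions, chosen by score, but 4122 is the whole AGO2 KD 1 list, which the equal number leaves uncut. With no margin, 25 genes were lower in AGO2 KD and 11 in LaminB KD than in mock, and 23 were lower in AGO2 KD than in LaminB KD. With a margin of 10 points, 28 synthetase genes could pass against mock. Lower than mock were 17 (60.7%) in AGO2 KD, against 59.7% of all genes that could pass, and 5 (17.9%) in LaminB KD, against 14.2%. Lower in AGO2 KD than in LaminB KD were 14 of 27 (51.9%), against 44.7%.

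Leaving out 1 library in turn, the count lower in AGO2 KD than in mock ranged from 13 to 22. That in LaminB KD than in mock ranged from 1 to 2, and that in AGO2 KD than in LaminB KD from 7 to 18. Of the genes that could pass, these were 50% to 88% of synthetase genes in AGO2 KD against mock, beside 44.1% to 80.1% of all. In LaminB KD against mock they were 4% to 8%, beside 10.0% to 11.1% of all. In AGO2 KD against LaminB KD they were 30.4% to 78.3%, beside 30.4% to 74.4% of all. The call takes every library of both groups, so the counts with a library left out could only stay or rise. They do not show that the calls are stable. The median differences ranged from −48.2 (without AGO2 KD 2) to −13.9 points (without AGO2 KD 1) for AGO2 KD minus mock and from −33.3 to −7.46 points for AGO2 KD minus LaminB KD, with the same libraries at the ends. The labels do not say that same-numbered libraries share a batch, and the correlation of their deviations over genes was −0.0319 (AGO2 KD and mock), 0.0572 (LaminB KD and mock) and −0.0392 (AGO2 KD and LaminB KD). With the replicate block, both same-numbered pairs had to differ by the margin. The counts were 13, 1 and 9 in place of 12, 0 and 7, in the order used above. The block was not counted over all genes. Every gene that passes the main call also passes the block, so a fall was not possible there. Exons in place of gene spans, and bases outside other genes (31 of 33 genes have any), moved none of these counts by over 1.5 times. Called regions without read counts limit all results: presence depends on an unknown depth.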
